A study of Mus musculus with 8 samples.

Results

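MC38 cells, a murine colon adenocarcinoma line, were compared with and without DENR after 4 h with 20 ng/ml IFNγ. The comparison takes 4 of the 8 samples of the series, which are 2 control and 2 DENR knockout (DENR KO) samples that all received IFNγ, and it covers 13928 of the 22142 genes and loci in their table, those that averaged 10 or more normalized counts. Normalized counts are read numbers per gene after division by a single size factor per library. The other 4 samples, 2 control and 2 DENR KO samples without IFNγ, have a table of their own. They are used as a second set of libraries for the genotype difference and in the interaction test over 8 samples. The labels do not say whether treated and untreated samples share the same knockout cells. A difference particular to those cells could therefore appear in both. DENR was removed with Cas9 and a lentiviral sgRNA, and the labels number the DENR KO samples without saying whether they stand for separate sgRNAs, clones or cultures, so p-values measure the spread between these samples only.

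DENR and its partner MCTS1 act on ribosomes that have just ended a short upstream open reading frame (uORF) in an mRNA leader, and help them start again at the main coding sequence. They are best known for uORFs in which the start codon is followed at once by a stop codon. IFNγ signals through the kinases JAK1 and JAK2, and the signal raises Irf1, the Cxcl9 to Cxcl11 chemokines, guanylate-binding proteins and many other genes. RNA-seq reports the level of an mRNA and not its translation, and fewer expressing cells cannot be told apart from less RNA per cell in these bulk samples.

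The 4 libraries held 17369020 to 18083259 reads on genes, and their size factors lay between 0.976 and 1.02. Of 10 epithelial and colon markers, 5 were listed in the table and 1 reached a mean of 10 normalized counts (Lgals4), while Cdh1 had a mean of 9.23 and Krt8 of 1.49, so the labelled origin is not visible in its defining markers. The 4 listed mesenchymal markers summed to 105580 to 106130 normalized counts in control and 111970 to 115940 in DENR KO cells. They did not rise as a set. Fn1 had 39880 and 37030 in control and 51290 and 45270 in DENR KO cells, and Cdh2 744.9 and 744 against 788.3 and 831.2. Vim, with 63830 and 67130 against 62700 and 64670, and Zeb1, with 1124 and 1225 against 1163 and 1206, overlapped between the groups. Of 12 leukocyte markers only Cd68 reached a mean of 10 (57.3), and Itgam lay at 0 in both DENR KO samples. The targeted gene, Denr (ENSMUSG00000023106), had 1438 and 1401 normalized counts in control cells and 946 and 957 in DENR KO cells. Both DENR KO samples were thus lower than both control samples, at 67.0% of the control mean (log2 fold change −0.58, SE 0.07, adjusted p = 8.2e-06, limma). The partner gene Mcts1 (−0.23, adjusted p = 0.37), its retrogene Mcts2 (−0.25, adjusted p = 0.36) and the related initiation factor gene Eif2d (0.11, adjusted p = 0.68) did not pass the test in limma.

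With IFNγ, 72 genes were higher in DENR KO cells (0.517% of the genes tested) and 143 were lower (1.03%), or 215 in all (1.54%), where a change needed an adjusted p under 0.05 in limma with Benjamini-Hochberg adjustment and a log2 fold change beyond 0.5. In all 72 and all 143 the samples of the groups did not overlap, which was also true of 21.1% and 20.8% of all genes in the respective direction. The higher side was a side of moderate changes in genes of low to middle level. Its log2 fold changes reached 2.995 with a median of 0.69, and 13 of the 72 genes were above 1. The median of the mean count was 192 for the higher and 643 for the lower genes. Only 4 of the higher genes had a mean above 1000, against 63 of the lower genes, and the 4361 genes tested at that level hold 0.0917% higher and 1.44% lower calls. Of the 72, 58 were protein-coding, 9 were loci without a gene name and 5 lay on alternate scaffolds of the assembly. Without the fold threshold, 251 genes (1.8%) were higher and 314 (2.25%) lower. Just inside the threshold were Efnb2 (0.50), Prr7 (0.50) and Snai1 (0.51), and just outside it were Sgo1 (0.498), Scara3 (0.497) and Hist1h2bc (0.49). The number of higher genes depended on the tool and on single samples. DESeq2 on the recovered reads called 37 higher and 122 lower genes, and the fit without control replicate 1 called 126 and 155.

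**Figure D1:**
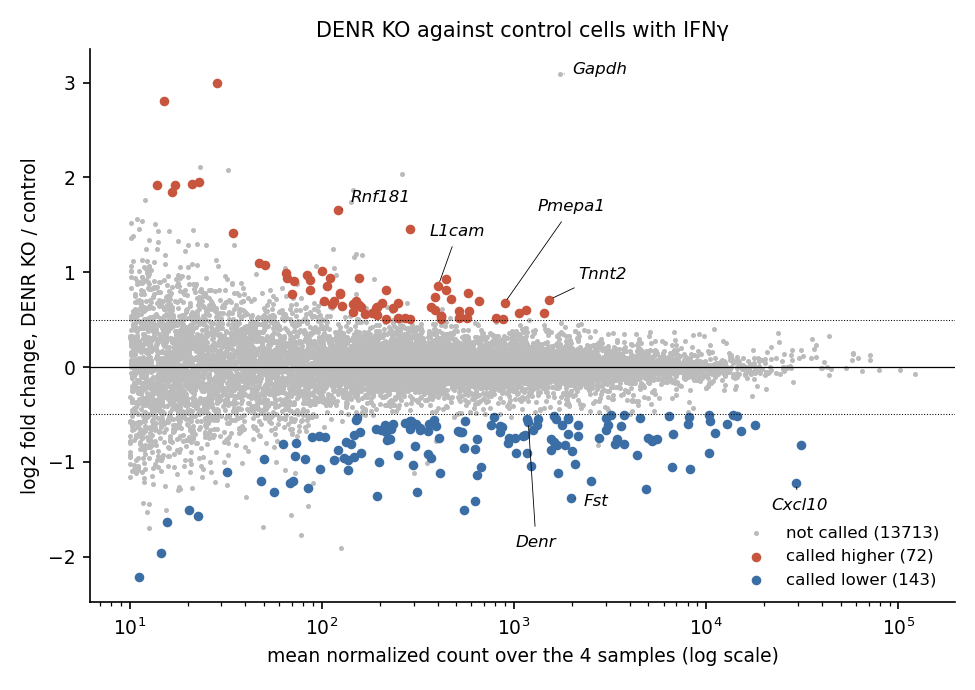
Each point is 1 of the 13928 genes tested with IFNγ, placed by its mean normalized count over the 4 samples (log axis) and its log2 ratio of DENR KO to control. The 72 genes called higher (red) lie mostly below a mean of 1000, the 143 called lower (blue) reach far above it, and the dotted lines mark the fold threshold of 0.5.

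The gene with the smallest p on the higher side was Tnnt2, which encodes the troponin T of heart muscle. It had 1145 and 1168 normalized counts in control and 1918 and 1867 in DENR KO cells. That is a rise from 1156 ± 16.5 to 1893 ± 35.8 (SD, n = 2 each), or 1.64-fold (log2 fold change 0.71, SE 0.07, adjusted p = 1.4e-07, limma). Among named genes that averaged 100 or more, the largest rise was that of Rnf181, a RING-type ubiquitin ligase gene. Rnf181 had 57.4 and 58.4 normalized counts in control and 187 and 182 in DENR KO cells, 3.18-fold (log2 fold change 1.65, SE 0.18, adjusted p = 1.0e-06, limma). The untreated samples did not repeat this, since the DENR KO samples there had 67.7 and 200 and the control samples 61.4 and 84.7 (log2 fold change 0.69, adjusted p = 0.87, limma). Rnf181 overlaps Tmem150a on the opposite strand, and the sources used here do not say whether strand was used in counting.

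Other genes among the 20 largest named increases are given with their values. Kitl, the ligand of the receptor KIT, went from 307 and 408 to 563 and 601 (log2 fold change 0.71, adjusted p = 0.00058, limma). Masp1, a protease of the lectin branch of complement, had 120 and 93.6 in control and 191 and 218 in DENR KO cells (log2 fold change 0.94, adjusted p = 0.00077, limma). Masp1 overlaps the interferon-stimulated gene Rtp4 on the opposite strand, and Rtp4 fell (log2 fold change −0.63, adjusted p = 0.00038, limma). Inside the cell, Dock8, an activator of the small GTPase CDC42, rose from 417 and 425 to 681 and 775 (log2 fold change 0.79, adjusted p = 5.0e-06, limma). Hist1h1c, a linker histone gene, rose from 536 and 471 to 802 and 833 (log2 fold change 0.70, adjusted p = 1.5e-05, limma). In Kitl, Masp1, Dock8 and Hist1h1c both DENR KO samples stood above both control samples, which the rule for the 20 required. Tymp (thymidine phosphorylase, log2 fold change 0.86, but 0.48 with an adjusted p of 0.31 in limma without control replicate 2), Tmem119 (0.78), Mrgpre (a receptor gene of the Mas-related family, 0.78), the long noncoding RNA Lockd (0.74), Syde2 (0.69), Serpinb8 (0.69), Mlph (melanophilin, 0.67), Mecom (a zinc finger transcription factor, 0.66) and Pkp1 (the desmosome protein plakophilin, 0.65) were also among the 20 largest named changes, as were Ngfr, L1cam, Pmepa1 and Hes1 below. Among the most abundant higher genes, Galnt18 (an enzyme of O-glycosylation, 0.57) and Fam19a5 (a secreted chemokine-like protein, 0.57) had means of 1438 and 1062.

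**Figure D2:**
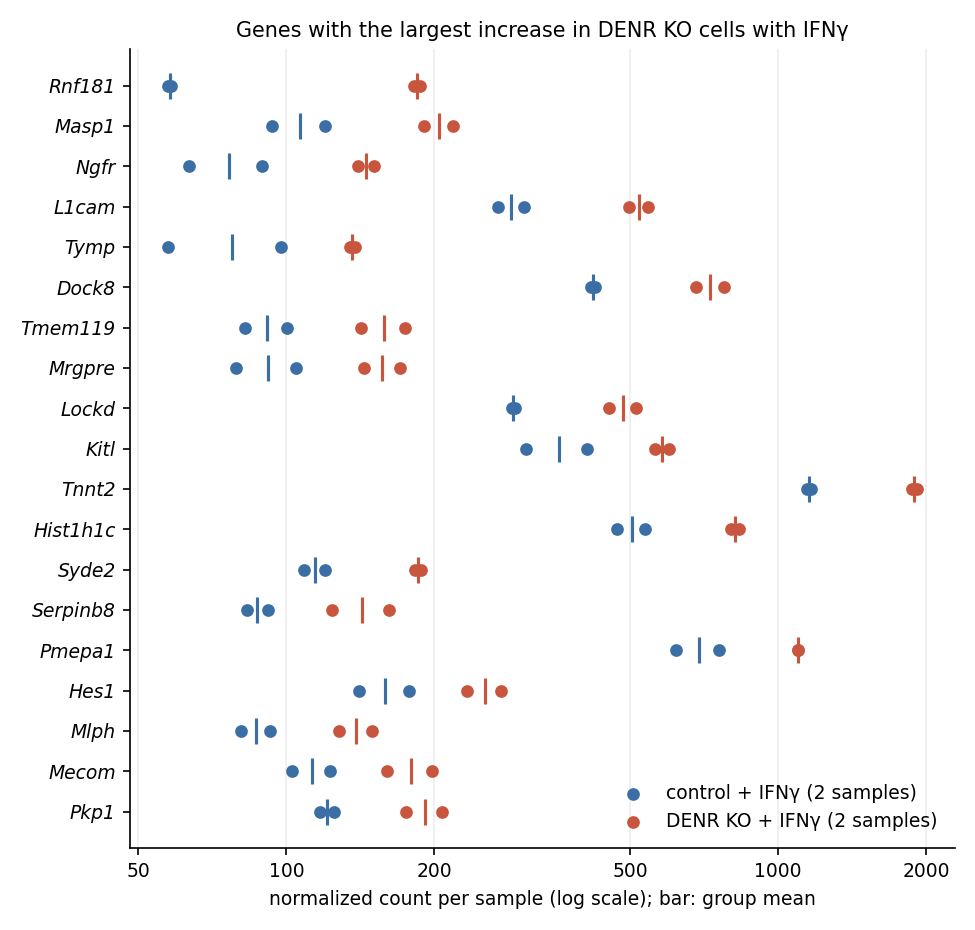
Normalized counts per sample (log axis) of 19 of the 20 named genes with the largest increase at a mean level over 100, in control (blue) and DENR KO cells (red) with IFNγ, where each dot is 1 sample and each bar the mean of 2. In every gene shown the red dots lie to the right of the blue dots, which was a condition for choosing them. The gap is widest in Rnf181.

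The higher genes were mostly higher in untreated cells as well. Of the 72, 71 were also tested in the untreated table, whose 4 samples are other libraries, and 64 of these (90.1%) had a log2 fold change above 0 there, as did 50.6% of all genes tested in both tables. The untreated DENR KO samples lay above the untreated control samples without overlap in 54 of the 71 genes (76.1%), against 20.4% of all genes. In 14 of the 71 the untreated difference passed an adjusted p of 0.05 in limma (0.432% of all genes did so in this direction). Among them were Ngfr, L1cam, Dock8, Lockd, Tnnt2, Pmepa1, Galnt18, Fam19a5, Mmp9, F13a1, Olfml2b, Grb14 and 2810021J22Rik. In Pmepa1, Mmp9, Ngfr and L1cam the difference was of like size in both tables. L1cam, for example, had 339 and 309 normalized counts in untreated control and 530 and 575 in untreated DENR KO cells (log2 fold change 0.77, adjusted p = 9.0e-05, limma), against 0.86 with IFNγ, and the difference of the effects was 0.09 (SE 0.15). Over the 71 genes the median untreated log2 fold change was 0.33. The difference between the effects with and without IFNγ, tested as an interaction over all 8 samples, passed an adjusted p of 0.05 in 1 of the 71, the predicted gene Gm4540 (0.022% of 13642 genes passed in this direction). Other genes were level without IFNγ, although the difference of their effects did not pass the test. Tmem119 had 308 and 280 in untreated control and 284 and 321 in untreated DENR KO cells (log2 fold change 0.04), and the interaction for it was 0.74 (adjusted p = 0.23, limma). Dbp, a clock-controlled transcription factor gene, had 47.1 and 51.3 with IFNγ in control and 104 and 83.0 in DENR KO cells (log2 fold change 0.91, adjusted p = 0.016, limma), with 139 and 120 against 130 and 136 untreated. The levels of the 2 tables were normalized separately and are set side by side only. The lower side was different. Of its 143 genes, 112 were tested in both tables, and Ido1, Cxcl11, Cxcl9 and Iigp1, among the largest decreases, were not. Below 0 untreated were 75 of the 112 (67.0%, against 49.4% of all genes), 6 of them with an adjusted p under 0.05 in limma (0.154%). In 37 of the 112 the interaction passed toward a lower effect with IFNγ (0.418% of all genes).

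**Figure D3:**
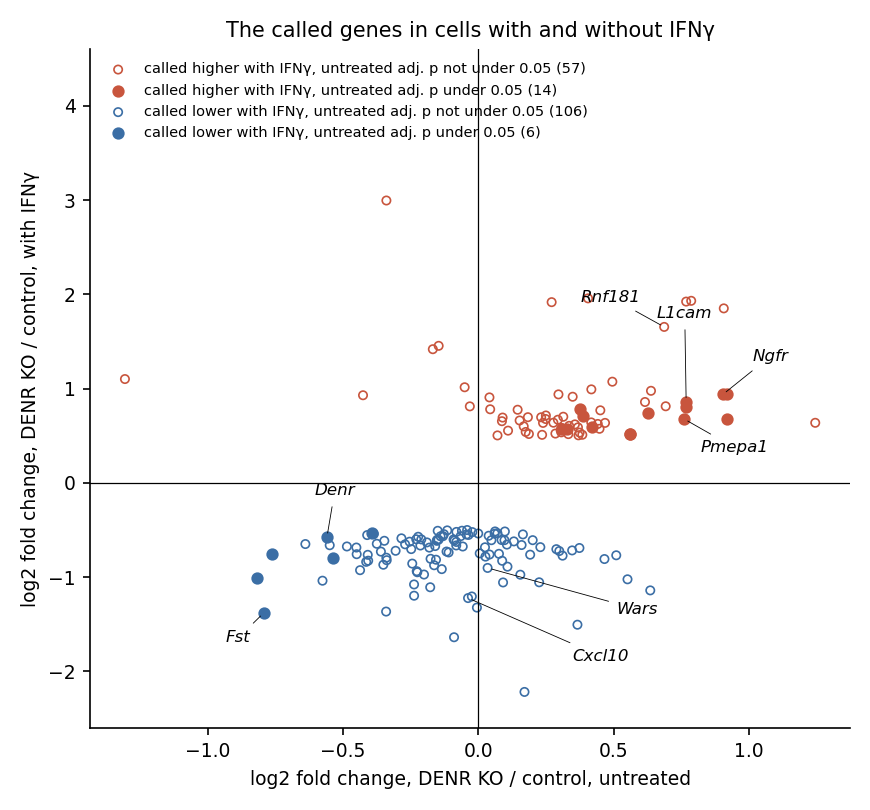
Log2 ratio of DENR KO to control without IFNγ (horizontal) and with IFNγ (vertical) for the called genes tested in both tables, with filled dots where the untreated adjusted p was under 0.05. Of the red dots, which are the genes higher with IFNγ, 64 of 71 lie right of 0, while the blue dots spread to both sides of 0.

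Among programs outside interferon signaling, the TGF-β pathway is given first, since 9 of its members passed the adjusted p on the higher side. TGF-β ligands bind surface receptors that phosphorylate SMAD proteins, which carry the signal to the nucleus and there induce both target genes and inhibitors of the pathway. Of 31 tested members, Pmepa1 and Snai1 were called higher and Fst was called lower. At an adjusted p under 0.05 without the fold threshold, 9 were higher and 1 was lower, against 1.8% and 2.25% of all genes tested. In all, 25 lay above 0, and the median log2 fold change was 0.18 with IFNγ and 0.17 untreated, against −0.00036 and 0.0022 over all genes tested. The list was written with earlier results of these samples known, so this count is a description. Pmepa1, a membrane protein that is induced by TGF-β and restrains SMAD signaling, had 621 and 758 normalized counts in control and 1097 and 1098 in DENR KO cells (log2 fold change 0.68, SE 0.09, adjusted p = 2.3e-05, limma), and without IFNγ 731 and 823 against 1276 and 1353. Snai1, a repressor of epithelial genes, had 701 and 746 against 1042 and 1017 (log2 fold change 0.51, SE 0.08, adjusted p = 0.00020, limma). Its call ended when 1 of 2 samples, control replicate 1 or DENR KO replicate 1, was left out (0.46 and 0.49) or when each sample was centred on its median (0.498). The other 7 members that passed the test, named after their values were seen, were the inhibitor Smad7 (0.47), the ligands Tgfb3 (0.44) and Tgfb1 (0.33), the target genes Id1 (0.38) and Id3 (0.29), the integrin chain Itgb5 (0.38) and the latent TGF-β binding protein Ltbp2 (0.35). Fst, follistatin, which binds and neutralizes activins, moved the other way from 2717 and 2993 to 1063 and 1124 (log2 fold change −1.38, SE 0.07, adjusted p = 3.3e-12, limma).

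The matrix lists held mostly changes below the fold threshold. Of 23 collagen chains tested, 18 lay above 0 with a median of 0.22 (0.15 untreated), none was called in limma, and 3 were higher at an adjusted p under 0.05. These were the basement membrane chains Col4a1 (0.44, adjusted p = 0.00025) and Col4a2 (0.39, adjusted p = 0.0054) and the microfibril chain Col6a3 (0.26, adjusted p = 0.0023, limma). Of all genes tested, 251 (1.8%) were higher at that adjusted p, and 970 at an unadjusted p under 0.05. Col4a1 had 1926 and 1733 normalized counts in control and 2602 and 2367 in DENR KO cells. Of 29 matrix proteases and their inhibitors, Mmp9, a gelatinase, was called higher, from 414 and 438 to 638 and 586 (log2 fold change 0.52, SE 0.09, adjusted p = 0.0011, limma), a value that went to 0.48 and 0.46 without control replicate 1 or DENR KO replicate 1. At an adjusted p under 0.05 the collagenase activator Mmp14 (0.35), the gelatinase Mmp2 (0.32), the inhibitor Timp2 (0.36) and Adam19 (0.32) were higher too, and no member was lower. Matrix glycoproteins and proteoglycans went in both directions. Of 37 tested, 8 were higher at an adjusted p under 0.05, among them fibronectin (Fn1, 0.33), and 3 were lower, namely the laminin chain Lama4 (−0.56, called), decorin (Dcn, −0.47) and fibrillin (Fbn1, −0.20). Dcn had 5820 and 6617 in control and 4322 and 4659 in DENR KO cells. Of 15 integrin chains, Itgb5 and Itga3 (0.27) were higher at an adjusted p under 0.05, and none was called.

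Receptors and adhesion molecules best known from neurons formed the list with the most called higher members, 5 of 44, with none called lower, where 0.517% of all genes tested were called higher. It was also among the longer lists, and it was written with earlier results of these samples known. L1cam, a homophilic adhesion molecule of growing axons, had 304 and 269 normalized counts in control and 497 and 544 in DENR KO cells (log2 fold change 0.86, SE 0.11, adjusted p = 8.5e-06, limma). Ngfr, the low-affinity neurotrophin receptor, had 89.1 and 63.4 against 140 and 150 (0.94, SE 0.19, adjusted p = 0.0038, limma). Unc5b, a netrin receptor, had 979 and 851 against 1441 and 1326 (0.60, SE 0.08, adjusted p = 2.7e-05, limma). Ephb2, an ephrin receptor tyrosine kinase, had 462 and 472 against 667 and 670 (0.52, SE 0.09, adjusted p = 0.00068, limma). Efnb2, a ligand of Eph receptors, had 176 and 180 against 257 and 249 (0.50, SE 0.13, adjusted p = 0.026, limma) and was not past the threshold in DESeq2 (adjusted p = 0.22), with a pseudocount of 10, after centring on the median or without control replicate 1, DENR KO replicate 1 or DENR KO replicate 2. All 5 genes separated the groups, as did all 72 higher genes. The neurotrophin Bdnf (0.44) was higher at an adjusted p under 0.05, while the guidance cues Slit2 (−0.37), Rgma (−0.38), Ntn1 (−0.23) and Sema3a (−0.25) were lower, so the list did not move as 1 block. Its median was 0.13 with IFNγ and 0.10 untreated. Tubb3, a tubulin named for neurons but the most abundant of the neural markers here, fell from 21472 and 21706 to 14180 and 14168 (log2 fold change −0.61, adjusted p = 4.7e-09, limma), and 3 of 7 neural markers were not listed in the table.

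**Figure D4:**
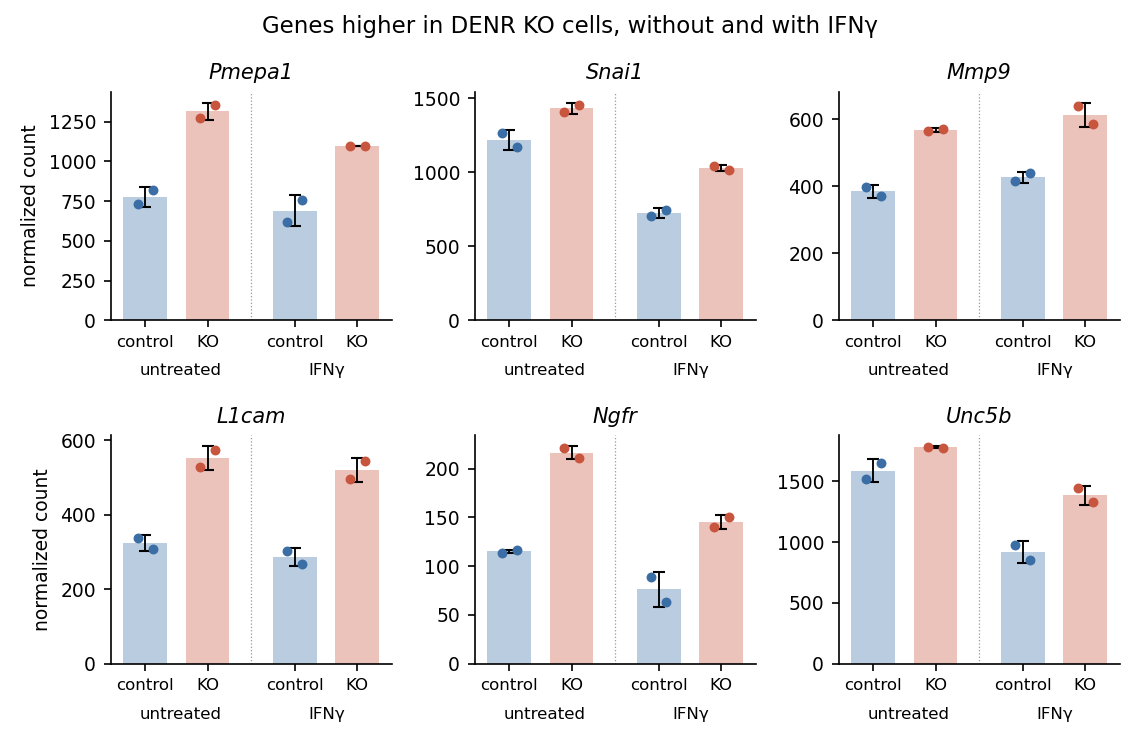
Normalized counts of 6 higher genes in control and DENR KO cells, without IFNγ (left pair, own table) and with IFNγ (right pair), where bars are means of 2 samples, error bars 1 SD and dots the samples. Pmepa1, Mmp9, L1cam and Ngfr differed by a like amount in both tables, while the untreated log2 fold changes of Snai1 (0.24) and Unc5b (0.17) did not pass the test.

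Other pathways contributed single genes to the higher side. In the Notch list (19 genes, median 0.05) the transcriptional repressor Hes1 rose from 140 and 177 to 274 and 233 normalized counts (log2 fold change 0.68, adjusted p = 0.0063, limma), a call that ended without DENR KO replicate 1 and in DESeq2, whereas the receptor Notch1 was lower (−0.45, adjusted p = 0.00018, limma). In the Hedgehog list, 9 of 10 genes lay above 0 with a median of 0.20, and the co-receptor Gas1 (0.28) was the only 1 with an adjusted p under 0.05, with Ptch1, the receptor, at 0.29 (adjusted p = 0.069, limma). In the Wnt list (24 genes, median 0.08) and among 24 receptor tyrosine kinases (median 0.07), Ephb2 was the called member. Of 25 hypoxia targets, 20 lay above 0 (median 0.08), Ankrd37 was called (0.62, adjusted p = 0.0091, limma) and Vegfa (0.33) was higher and the hexokinase Hk2 (−0.34) lower at an adjusted p under 0.05. Of 18 heat shock genes only Hspa4l, an HSP110-type chaperone gene, was called, from 294 and 280 to 403 and 494, and its untreated control samples, at 104 and 283, differed more from each other than the groups did with IFNγ. Histone genes had the highest list median, 0.34 over 22 genes with IFNγ and 0.32 over 19 untreated. Besides Hist1h1c, the genes Hist1h2bc (0.49), Hist2h2be (0.41) and H1f0 (0.27) were higher at an adjusted p under 0.05 and none was lower. Most histone mRNAs end without a poly(A) tail, and mRNA was selected here with poly-T beads. In the complement list, C4b (−0.91), C1s1 (−0.70) and C1ra (−0.62) fell while Masp1 rose, and in the nucleoside list Samhd1 (−0.67), a dNTP hydrolase, fell while Tymp rose.

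The housekeeping and stress programs showed few or no called genes. Of 45 lists outside interferon signaling, 16 had a called higher member, 14 a called lower member and 21 neither, and their medians lay between −0.16 and 0.34. A gene such as Ephb2 counts in several lists. All 48 lists together held 17 of the 72 higher and 60 of the 143 lower genes, so most higher genes were in none. No member was called among 80 cytosolic ribosomal protein genes (median −0.02), 54 respiratory chain subunits (−0.05), 47 genes of S phase and DNA replication (−0.02), 58 genes of the G2 and M phases (−0.03), 31 MYC targets (−0.05) and 29 genes of the ER unfolded protein response (−0.05), and none of these 6 lists had a member with an adjusted p under 0.05 in limma. The ribosomal protein gene Rpl7a, with 3053 and 3986 normalized counts in control and 2090 and 1853 in DENR KO cells, was called lower by edgeR and DESeq2 but not by limma (−0.83, adjusted p = 0.12). Without IFNγ, Rpl7a varied widely within each genotype, with 4186 and 2180 in control and 3667 and 2031 in DENR KO samples. Of 45 genes of initiation and reinitiation, Denr alone was called. The 24 cholesterol synthesis genes were all below 0 with a median of −0.12 (−0.16 untreated). None was called, and Acat2 (−0.32, adjusted p = 0.016) and Cyp51 (−0.21, adjusted p = 0.048) passed the adjusted p in limma. Of 39 ATF4 targets (median −0.10), Atf3 was called lower (−0.60), which is also an immediate early gene along with Zfp36 (−0.57). Of 20 tRNA synthetases (median −0.12), only Wars, which IFNγ is known to induce, was called (−0.90, adjusted p = 1.8e-11, limma).

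**Figure D5:**
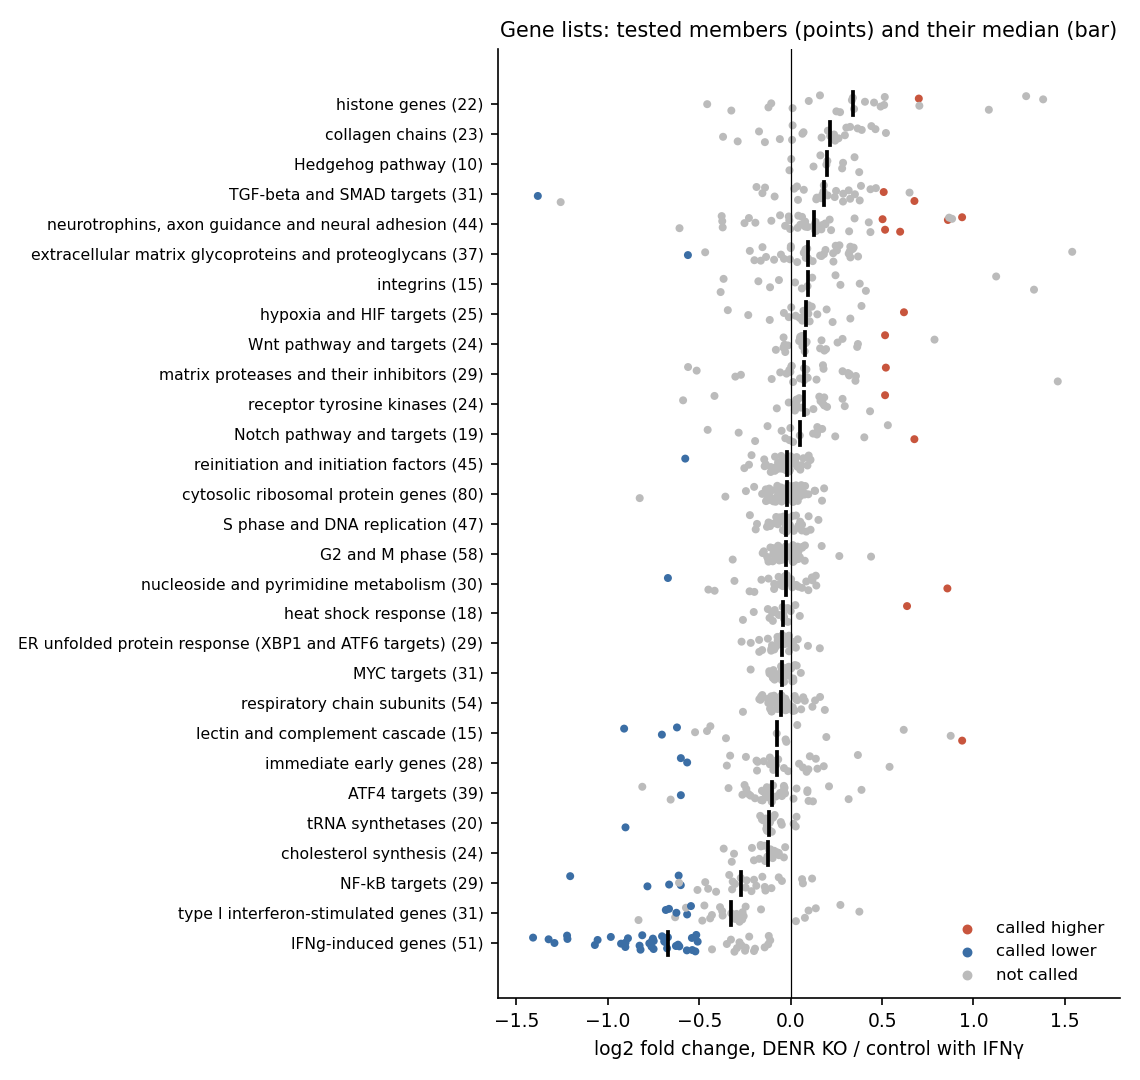
Log2 ratio of DENR KO to control with IFNγ for each tested member of 29 gene lists (number of members in brackets), colored by call, with a black bar at the median of the list. The medians of the 3 interferon and NF-κB lists at the bottom lie at −0.67, −0.33 and −0.27, and the highest medians are those of histone genes (0.34), collagens (0.22), the Hedgehog pathway (0.20) and TGF-β and SMAD targets (0.18).

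Start-stop uORFs were looked for in the annotated leaders of the called genes, because this is the kind of uORF that DENR is known to act on. For the protein-coding genes, the 5′ UTR of 1 principal GENCODE transcript was read (57 of 58 higher genes, 117 of 120 lower genes and 11351 of 11577 tested genes). A start-stop uORF, ATG followed directly by TAA, TAG or TGA, was present in 8 of the 57 higher genes (14.04%), 9 of the 117 lower genes (7.69%) and 714 of all 11351 (6.29%). A uORF of any length that also ended within the leader was present in 52.6%, 53.8% and 44.5%. Frames that run past the main start codon were not counted. The median leader was 248, 191 and 183 nt long. These shares are a description, longer leaders hold more start codons, and no test was made. Counts are per gene, so whether the transcript that was read is the form expressed in these cells was not tested. The 8 genes were Mrgpre, Syde2, Mecom, Inafm1, Tigd2, Ppp1r26, Zfp51 and 2810021J22Rik, whose log2 fold changes ran from 0.52 to 0.81. The motifs of the 3 that rank among the 20 largest named changes are shown with 10 bases of leader on either side in the transcript direction, the start and stop codons in capitals, with positions in GRCm38.
Mrgpre (chr7:143784325-143784350, minus strand, 193 nt before the main start codon): ctccgacaccATGTGAcactgaggag
Syde2 (chr3:145987874-145987899, plus strand, 109 nt before it): tatgccaagtATGTGAggagctggcg
Mecom (chr3:30009863-30009888, minus strand, 164 nt before it): gagttttgcaATGTGAagttctgcat
Mecom (chr3:30009830-30009855, minus strand, 131 nt before it): agtcaaccagATGTAGgaagctggct
Mrgpre had 78.9 and 105 normalized counts in control and 144 and 170 in DENR KO cells, Syde2 had 109 and 120 against 188 and 183, and Mecom had 102 and 123 against 198 and 160. None of the 3 was past the threshold in DESeq2 (adjusted p = 0.11, 0.089 and 0.17), and each lost its call without DENR KO replicate 1 or without other single samples.

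The lower side is given in brief, beginning with the genes that IFNγ is known to induce. Of 51 tested members of that list, 35 were called lower and none was called higher, against 1.03% and 0.517% of all genes tested. All 51 lay below 0 (median −0.67, and −0.0057 over 40 members untreated). Of the 143 lower genes, 45 were in an interferon or NF-κB list, as were 0 of the 72 higher genes. These lists held 51, 31 and 29 of the 13928 genes tested, a share so small that 0 of 72 does not set the higher side apart. The largest decreases among named genes at a mean level over 100 were those of Ido1 (−1.41), Fst (−1.38), Cxcl11 (−1.32), Cxcl9 (−1.29), Cxcl10 (−1.22), Ifi203 (−1.20), Ubd (−1.14), Gbp10 (−1.09), Iigp1 (−1.07) and Neurl3 (−1.06). Ubd, a ubiquitin-like modifier, had 820 and 952 normalized counts in control and 394 and 406 in DENR KO cells, and Neurl3, a ubiquitin ligase gene, 938 and 883 against 408 and 467. Of the pathway genes, Jak2 (−0.30, adjusted p = 0.0064) was lower by less than the fold threshold, Irf1 (−0.52) and Cd274 (−0.83) were called, and Jak1 was at 0.01 (adjusted p = 0.96, limma). Type I interferon-stimulated genes had 5 of 31 members called lower (median −0.33), among them Oasl2 (−0.67), Zbp1 (−0.68), Xaf1 (−0.55) and Rtp4, and NF-κB targets 5 of 29 (median −0.27), among them Cxcl1 (−0.78), Sod2 (−0.66), Ccl7 (−0.61) and Ccl2 (−0.60). The 6 lower genes that also passed the adjusted p untreated were Denr, Fst, Ifitm1, Il1rl1, Prl2c2 and Prl2c3, the last 2 being near-identical copies whose reads may have been divided between them. Outside these lists, the cell surface and signaling genes Gja4 (−0.83), Crabp2 (−0.87) and Osmr (−0.61), chosen after their values were seen, were also called lower.

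RefSeq promoter windows of GRCm38.p6, 250 bases before to 50 after a gene's start, were found for 47 of the 72 higher and 80 of the 143 lower genes. That is under 80% of either side, so the planned comparison of motif shares and GC content is void and no shares by side are given. Windows are shown for 2 lower genes only as reference for the motifs that IFNγ signaling is known to use, the GAS motif (TTCNNNGAA, in 8.47% of 27025 windows on either strand) and the ISRE (GAAA, any 2 bases and GAAA again, in 3.49%), with the motif in capitals.
Irf1, GAS, chr11:53769916-53769940, plus strand: agcctgatTTCCCCGAAatgatgag
Cxcl10, ISRE, chr5:92349085-92349110, minus strand: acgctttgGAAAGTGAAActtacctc

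The higher genes were spread over the genome. They lay on 17 of the 19 autosomes, on X and on the mitochondrial genome (the tRNA gene mt-Tp, log2 fold change 1.01), with at most 7 on a chromosome, and the median log2 fold change of the autosomes and X stayed between −0.02 and 0.01. The largest changes of all were in genes with few reads or without a name, such as Abhd18, which had 3.07 and 12.1 normalized counts in control and 28.5 and 22.5 in DENR KO cells and lies near Hspa4l. Gapdh, a glycolysis gene often used as a reference, had 347 and 351 in control and 4029 and 2201 in DENR KO cells with IFNγ but 434 and 4248 in the untreated control samples, and it did not pass the test (log2 fold change 3.09, adjusted p = 0.18, limma). Across 10 alternatives (edgeR, DESeq2, a pseudocount of 10, no filter on low values, median centring, each sample left out and a replicate block), 72 of the 72 higher genes stayed above 0 and 20 stayed past the threshold in every one. Among these 20 were Dock8, Ephb2, Hist1h1c, Kitl, L1cam, Lockd, Masp1, Ngfr, Olfml2b, Pmepa1, Rnf181, Sptbn4, Tnnt2, 2810021J22Rik and mt-Tp. That all 72 stayed above 0 was fixed in advance where 1 sample was left out, since their groups did not overlap. The other alternatives refit the same samples.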

How the data were processed

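RNA-seq was made from poly-T-selected mRNA of MC38 cells as 150 bp paired reads. Per the labels, the submitters' processing notes name HISAT2 2.0.5, StringTie 1.3.3b, featureCounts 1.5.0-p3 and DESeq2 1.20.0 with build mm9, but the coordinates in the tables equal those of GENCODE M21 on GRCm38 for 95.21% of 21739 genes, so positions are given in GRCm38. Whether strand was used in counting is not given in the sources used here. The authors deposited a normalized signal per gene and sample, which is a read count divided by 1 size factor per sample. Dividing out the smallest step gave whole reads for 100% of the values (tolerance 0.01). Columns of the authors' own comparisons, which hold fold changes and p-values, were not used.

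Genes with a mean of at least 10 over the 4 samples with IFNγ were tested with limma 3.58.1 (trend and robust) on log2(value + 1), with Benjamini-Hochberg adjustment, in R 4.3.3. Fold changes on this scale understate the change of low genes. The untreated table was fitted by itself in the same way, and the difference of the effects was fitted as an interaction over 8 samples. Alternatives were edgeR 4.0.16 (quasi-likelihood) and DESeq2 1.42.0 on the recovered reads, another pseudocount, other filters and fold thresholds, median centring, each sample left out and a replicate block. The limma, edgeR and DESeq2 fits of the comparison with IFNγ and the limma interaction were tested on simulated data. The untreated fit, the replicate block and the interaction in edgeR and DESeq2 were not. The depth of 17369020 to 18403790 reads on genes per library limits counting error only.

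Genes were named by rule. The rule took the targeted gene, the 20 largest increases and 10 largest decreases with a gene name and a mean of at least 100, the smallest p-values, the members of each list with the smallest p, the strongest interactions and the pathway genes. Exceptions are marked in the text, and some genes that met the rule are not reported here. The members of the gene lists, and the comparison itself, were chosen with earlier results of these data known. The uORF description was added after the data were seen.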

Additional observations from a re-analysis of the deposited data

Results flagged for a closer look

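For 18 of the genes named by rule, the effect of DENR KO differed between cells with and without IFNγ by the interaction test in limma over 8 samples. The rule itself took genes with the smallest interaction p in each direction, so this count is not a share. Over all 13642 genes tested, 3 passed toward a higher effect (0.022%) and 57 toward a lower effect (0.418%). The values below are the effect with IFNγ minus the effect without it, on the log2 scale. Interferon-responsive and chemokine genes had the lower effect with IFNγ, namely Gbp4 (−1.28), Cxcl10 (−1.18), Igtp (−1.06), Ifi203 (−0.96), Wars (−0.94), Cxcl1 (−0.81), Irf1 (−0.58), Sod2 (−0.58), Ccl7 (−0.52), Ccl2 (−0.51) and Samhd1 (−0.51). The complement proteases C1s1 (−0.99) and C1ra (−0.75) did so too, as did the tubulin Tubb3 (−0.69) and the centrosomal gene Cep85 (−0.83). Tubb3 fell by 0.61 with IFNγ and was at 0.09 untreated.

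Higher effects with IFNγ were found for Dkk2, an inhibitor of Wnt signaling (0.40, from 0.19 with IFNγ and −0.20 without, not called in the comparison with IFNγ), for the predicted gene Gm4540 (2.41, from 1.10 and −1.31) and for an unnamed locus on an alternate scaffold (1.97, from −0.43 and −2.40). Groups of 2 samples were not tested for outlying samples.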

How the results depend on the processing

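The 72 higher and 143 lower genes became 70 and 137 with edgeR, 37 and 122 with DESeq2, 251 and 314 with no fold threshold and 13 and 31 beyond a log2 fold change of 1. Leaving out 1 sample gave 69 to 126 higher genes, the highest without control replicate 1, and 155 to 159 lower genes. The other settings gave 63 to 72 and 136 to 149. The share of higher calls was 33.5% in limma and 23.3% in DESeq2, and the cause was not tested. Of the 72 higher genes, 63 were also called by edgeR and 34 by DESeq2. The interaction, with 3 higher and 57 lower genes, gave 5 higher with DESeq2. Leaving out 1 sample gave 1 to 12 higher and 33 to 77 lower, the lowest without control replicate 2 with IFNγ. Of 65 called genes named by rule, 45 stayed past the threshold under every alternative and none reversed. That no called gene reversed was fixed in advance where 1 sample was left out, since the groups of the called genes did not overlap. The log2 fold change of Jak1, which was not called, ran from −0.0044 to 0.0301 when 1 sample was left out. It was below 0 without control replicate 1 or DENR KO replicate 2.

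No label ties samples of the same number to a shared culture, batch or day, so the numbers were not taken to pair the samples. Deviations of same-numbered samples correlated at 0.223 over 10358 genes, and 2 pairs do not settle whether they belong together. A replicate block gave 110 higher and 175 lower genes, and 30 higher and 116 lower in the interaction.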
